A study of Mus musculus with 8 samples.

Results

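Stard10, Dio1 and Fbp1 are 3 metabolic genes, of 13675 named genes on the arrays, chosen by their signal near background in the islets of knockout mice. On the array types used, MG-U74A and MG-U74B of Affymetrix, 3 of 24965 probe sets (groups of probes for 1 transcript) were assigned to them by gene number in the array annotation. Each gene had 1 probe set on MG-U74A, and MG-U74B held 0. The values that chose the genes are those of the comparison of knockout with wild type, so the intensities and log2 changes of their own probe sets are given as a description, without a test.

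The arrays measured total RNA of pancreatic islets from 2 groups, the knockout mice, in which 1 gene had been inactivated, and wild type mice. Each group had 2 replicates on each array type, 8 arrays in all, which the series calls biological. Whether they came from separate animals, and the age, sex and strain of the mice, are not given in the sources used here. Values are linear intensities that differ in meaning between probe sets, so no gene is called higher than another.

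Islets are the endocrine clusters of the pancreas, made mostly of insulin-secreting beta cells. Stard10 encodes a lipid carrier with a START domain, the fold that shields a lipid from water, and it moves phosphatidylcholine and phosphatidylethanolamine between membranes. In mouse beta cells it is needed for normal insulin granules. Dio1 encodes type 1 deiodinase, a selenoenzyme best known from liver, kidney and thyroid, which converts the prohormone thyroxine to active triiodothyronine and clears inactive forms. Fbp1 encodes fructose-1,6-bisphosphatase, which removes a phosphate from fructose bisphosphate in gluconeogenesis and so works against the phosphofructokinases of glycolysis.

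The genes lie on different chromosomes, Stard10 at chr7:101317086-101346626, Dio1 at chr4:107291465-107307168 and Fbp1 at chr13:62864753-62888298 in GRCm38.p6. Their RefSeq promoter windows, 250 bases before to 50 bases after an annotated transcript start, are shown so that the letters around the starts can be compared. The start is the outer end of the gene for Stard10 and Dio1, and for Fbp1 it is position 62888282, 16 bases inside the gene's outer end. They are printed 5′ to 3′ on the strand of the gene, and capitals mark matches to the motifs named below.
Stard10 (plus strand, chr7:101316836-101317135): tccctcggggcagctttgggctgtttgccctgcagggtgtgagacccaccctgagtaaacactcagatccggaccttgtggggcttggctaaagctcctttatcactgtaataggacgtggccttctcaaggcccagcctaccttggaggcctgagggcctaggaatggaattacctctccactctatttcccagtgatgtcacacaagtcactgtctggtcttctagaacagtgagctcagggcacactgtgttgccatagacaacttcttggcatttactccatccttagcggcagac
Dio1 (minus strand, chr4:107307119-107307418): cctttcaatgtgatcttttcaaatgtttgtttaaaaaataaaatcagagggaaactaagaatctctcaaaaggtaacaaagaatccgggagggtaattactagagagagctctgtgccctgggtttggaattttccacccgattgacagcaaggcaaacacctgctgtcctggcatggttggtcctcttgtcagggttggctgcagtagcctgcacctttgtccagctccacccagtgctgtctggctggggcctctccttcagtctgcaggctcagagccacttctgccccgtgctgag
Fbp1 (minus strand, chr13:62888233-62888532): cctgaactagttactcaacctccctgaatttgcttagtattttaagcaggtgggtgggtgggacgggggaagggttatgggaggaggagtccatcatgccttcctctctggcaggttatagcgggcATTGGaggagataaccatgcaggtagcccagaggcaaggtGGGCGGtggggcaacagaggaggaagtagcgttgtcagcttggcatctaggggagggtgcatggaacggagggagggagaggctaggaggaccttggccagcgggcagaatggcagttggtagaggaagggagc

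The ratio of observed to expected CG was 0.188 for Stard10, 0.162 for Dio1 and 0.292 for Fbp1, against a median of 0.384 over 32851 mouse promoter windows. Of those windows 27.0%, 22.9% and 40.9% had a ratio lower than that of Stard10, Dio1 and Fbp1, so that of Fbp1 was nearest to the middle. Their GC content of 53.3%, 49.7% and 57.3% lay around the median of 52.7%. Of 6 short motifs searched on both strands, the 3 windows held 2 matches, both in Fbp1. It had a CCAAT box, the site CCAAT read on the opposite strand, beginning 124 bases before that start, and a GC box, GGGCGG, beginning 84 bases before it. CCAAT stood in 37.4% of all windows and GGGCGG in 35.7%. The TATA box TATAAA (13.6% of all windows) and the nuclear receptor half-site AGGTCA (16.3%) had 0 matches in each window. The same held for GTTAAT (7.10%), a half-site of only some homeodomain proteins, and the E-box CACGTG (7.15%). Other homeodomain sites were not searched. The motifs do not overlap one another in these windows. A match of such short letters is a description and not a binding site.

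Stard10 (probe set 96735_at) was listed at -92.8 and -62.9 on the knockout arrays, against 1218 and 1127 on the wild type arrays. Both knockout values were below 0, and the lower wild type array stood 1190 units above the higher knockout array. Values below 0 occur in 18.4% to 20.5% of the probe sets of an MG-U74A array. A negative value carries no order, so the knockout level is only known to be too low to show. The mean was -77.8 ± 21.1 in knockout and 1173 ± 64.7 in wild type (SD, n = 2 each).

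Dio1 (probe set 95552_at) was listed at -4.20 and 7.20 on the knockout arrays and at 562 and 721 on the wild type arrays. Its genotypes did not overlap, and its wild type arrays were the least alike of the 3 genes, with an SD of 17.6% of their mean compared with 5.52% for Stard10 and 2.53% for Fbp1. The wild type mean was 641 ± 113 (SD, n = 2).

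Fbp1 (probe set 96918_at) was listed at -7.00 and -11.7 on the knockout arrays, against 352 and 365 on the wild type arrays. Both knockout arrays were below 0 and the wild type arrays lay 12.8 units apart. The means were -9.35 ± 3.32 in knockout and 358 ± 9.05 in wild type. Older symbols of Fbp1 and its muscle-type paralog Fbp2 were exchanged with each other, so the gene number and not the symbol decided. The annotation gives no accession for this probe set.

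**Figure D1:**
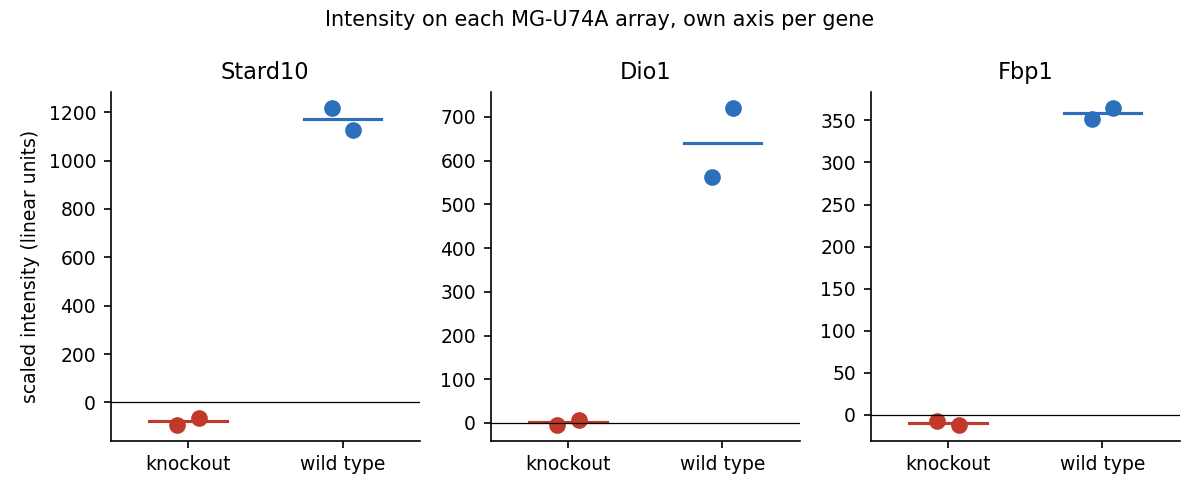
Scaled intensity (linear units, vertical axis, a separate axis for each gene) of Stard10, Dio1 and Fbp1 on each MG-U74A array, with knockout in red on the left and wild type in blue on the right. Points are single arrays and lines are means of 2 arrays. The knockout points sit near or below the zero line, the highest at 7.20 for Dio1, and the lowest wild type point is 352, for Fbp1.

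Among the 5641 probe sets with a knockout mean within 100 units of 0, the knockout arrays lay a median of 19.9 units apart, and 95% lay within 84.8 units. The knockout arrays of Stard10, Dio1 and Fbp1 lay 29.9, 11.4 and 4.70 units apart.

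On the log2 scale, with values below 0 put at 0 and a constant of 10% of the array mean added, the knockout minus wild type difference was -5.58 ± 0.12 (SE) for Stard10, -4.54 ± 0.22 for Dio1 and -3.94 ± 0.17 for Fbp1. These sizes depend on the constant, since the knockout values are at or near 0. With a constant of 4% they were -6.88, -5.62 and -5.20, and with 20% they were -4.61, -3.68 and -3.03. Stard10 and Fbp1 have no spread between the knockout arrays on this scale, so their SE rests on the wild type pair and limma's pooling. Of the 7516 tested probe sets of MG-U74A 49 were at or under the constant on both knockout arrays, as all 3 genes were. The filter was on the mean over all arrays, so a probe set this low in knockout was tested only through its wild type values. The count therefore does not show how rare such a knockout level is. By limma with Benjamini-Hochberg adjustment 52.9% of tested probe sets passed, 29.0% lower in knockout and 23.9% higher, and in 43.9% both knockout arrays lay below both wild type arrays, shares that stand here as background only.

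**Figure D2:**
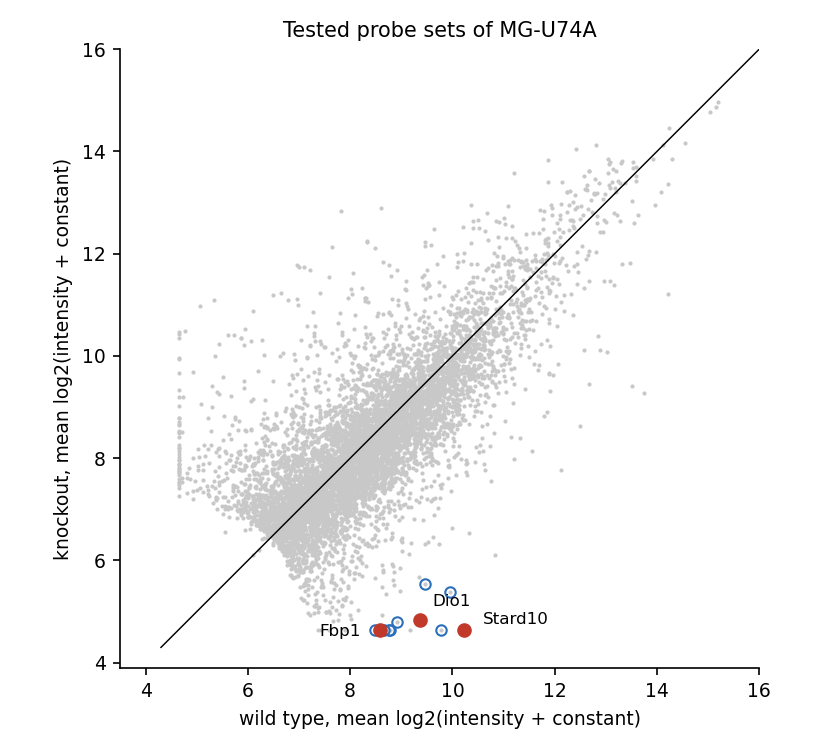
Mean log2(intensity + constant) of the 7516 tested probe sets of MG-U74A in knockout (vertical axis) and wild type (horizontal axis), with the line of equality. Red points are Stard10, Dio1 and Fbp1, and blue circles are the probe sets most alike in pattern. The 3 genes lie on the lower edge, where the knockout values are at or near the constant, with differences of -5.58, -4.54 and -3.94 from the line of equality.

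The genes whose pattern was most alike were those with the smallest Euclidean distance over the 4 arrays on this scale, among 10854 probe sets with 1 gene name. This distance also depends on how bright each probe set is, so it finds probe sets with like printed values and does not show like RNA levels. For Stard10 the closest was Meg3 at a distance of 0.63, a maternally expressed non-coding RNA, followed by Dio1 (1.30), Clps (1.52, pancreatic colipase), Slc2a2 (1.70, the glucose transporter of beta cells and liver) and Cmip (1.89). For Fbp1 the closest were Gata1 (0.11, an erythroid transcription factor), Frzb (0.21, a secreted Wnt antagonist), Rps29 (0.26, a ribosomal protein), Wnt4 (0.30) and Cmip (0.56). Dio1 was closest to Cmip (0.68), Meg3 (0.78), Wnt4 (0.95), Rps29 (0.95) and Gata1 (1.10). Among the 3 genes, Fbp1 held place 6 for Dio1 and place 10 for Stard10, and Stard10 held place 117 for Fbp1.

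Several of these genes had another probe set on MG-U74A that behaved differently. The Meg3 probe set near Stard10 averaged -76.1 in knockout and 858 in wild type, while another averaged 218 and 806. On MG-U74B neither tested Meg3 probe set passed, at 1.56 ± 0.40 and -0.63 ± 0.25. For Cmip a second probe set differed by -0.86 ± 0.05, against -4.10 ± 0.19 for the one near Dio1. Rps29 had a second probe set at 172 in knockout and 150 in wild type, which did not pass the threshold. Stard10, Dio1 and Fbp1 have no second probe set, so their values rest on 1 probe set each.

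The arrays of the genotypes also differed outside these genes. The 3′ control probe set over the 5′ one is a measure that grows as RNA becomes less complete. For Gapdh on MG-U74A it was 0.943 ± 0.0085 in knockout and 3.19 ± 0.050 in wild type. For beta-actin the difference was smaller, with 1.14 ± 0.027 in knockout and 1.46 ± 0.016 in wild type. All 9 tested acinar cell genes (digestive enzyme makers) fell, with a summed intensity of 5081 to 5646 on knockout arrays and 40167 to 40509 on wild type arrays. Of 8 tested lymphocyte genes 6 rose. The sums over all 11 measured were 20128 to 21209 in knockout and 4444 to 4533 in wild type. Ighm alone averaged 12187 in knockout and 2343 in wild type. Sums take values below 0 as 0 and weigh bright probe sets most, so they do not measure how many cells of a type were present. Cd79a was below 0 in wild type only, while Cd3e, not tested on MG-U74A, was below 0 in both genotypes. Of 12 fibroblast and stellate cell genes 9 rose and 1 fell (sums 19160 to 20203 against 6196 to 6218, with Acta2 at or below 0 in wild type). All 10 tested macrophage and dendritic cell genes rose. The sums over all 12 measured were 17508 to 17851 against 4621 to 4708, with Fcer1g and Itgam at or below 0 in wild type. Neither Fcer1g, at 9.60 and -5.50 in knockout, nor Itgam, at 73.9 and 23.0 in knockout, was tested. The 5 beta cell markers measured all fell, from Ins2 at -0.27 to Slc2a2 at -3.93, and Pdx1 was at 23.1 and -6.10 in knockout. Their sums were 41387 to 45983 in knockout and 58078 to 58865 in wild type. These came mostly from Ins2 (means of 28090 and 33860) and Iapp (14788 and 19969). The islet hormone genes Ins2, Gcg, Sst and Ppy were at 8901 or above on every MG-U74A array. On MG-U74A alpha cell genes split, 1 higher and 1 lower, and all 3 delta cell genes and the PP cell gene Ppy fell. Of 8 endothelial and 8 duct genes 5 and 3 rose while 1 and 3 fell. Among all tested probe sets of MG-U74A 23.9% were higher and 29.0% lower, beside which all these counts stand. On MG-U74B the alpha cell gene Irx2 (-2.39 ± 0.57) and the PP cell gene Pyy (0.10 ± 0.11) did not pass. The part of these differences in the values of Stard10, Dio1 and Fbp1 was not tested. In whole islets fewer cells of a type and less RNA per cell cannot be told apart.

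Genes around the step that Fbp1 catalyses went both ways. Of 27 listed genes of fructose bisphosphate and gluconeogenesis 21 were measured on MG-U74A and 14 tested, of which 2 rose, 4 fell and 8 did not pass, with a median log2 change of -0.03 against -0.09 over all tested probe sets. The share that fell stood at 4 of 14, against 29.0% of all tested probe sets, and the share that rose at 2 of 14, against 23.9%. Slc2a2 was at 31.5 and 13.2 in knockout and at 705 and 662 in wild type, and fell by 3.93 ± 0.23 (limma, adjusted p = 6.74e-04). G6pc2, the islet glucose-6-phosphatase subunit, was at 821 and 725 in knockout against 3755 and 3746 in wild type (-2.24 ± 0.07, adjusted p = 1.92e-04). The fructose transporter gene Slc2a5 fell by 1.34 ± 0.10, with 258 and 304 in knockout against 759 and 737 in wild type. Slc37a4, which carries glucose-6-phosphate into the endoplasmic reticulum, fell by 0.70 ± 0.11.

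A phosphofructokinase and an aldolase were higher. Pfkl, the liver-type phosphofructokinase that Fbp1 opposes, was at 795 and 771 in knockout against 397 and 471 in wild type, a rise of 0.82 ± 0.10 (limma, adjusted p = 0.00416). Aldoa, the aldolase that splits the sugar, rose by 0.72 ± 0.10 (limma, adjusted p = 0.00669). The other phosphofructokinase genes, Pfkm at 0.88 ± 0.55 and Pfkp at 0.24 ± 0.14, did not pass, and a second Pfkp probe set rose. Upstream enzymes of gluconeogenesis did not pass, with Pcx at -0.49 ± 0.26 and Pck2 at -0.35 ± 0.34, and Pck1 was too dim to test. The paralog Fbp2 was listed below 0 on every MG-U74A array, at -60.1 and -20.1 in knockout and -86.8 and -72.3 in wild type. On MG-U74B, where 8.87% of all tested probe sets were lower, 8.59% higher and 17.5% passed, 1 of 3 tested genes fell. This was Pfkfb2, a kinase that sets the level of the phosphofructokinase activator, at -204 and 23.8 in knockout against 193 and 244 in wild type (-2.79 ± 0.56, limma, adjusted p = 0.0350). The call of Slc37a4 ended when either wild type array was left out (adjusted p = 0.0757 without the first, 0.0809 without the second), and that of Pfkfb2 without knockout replicate 1 (0.0739), with the constant of 4% (0.0554) and with no filter (0.114).

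Thyroid hormone genes beside Dio1 were mostly lower. Of 23 listed genes 16 were measured on MG-U74A and 11 tested, of which 9 fell, 1 rose and 1, Thrsp, did not pass, with a median of -0.82. This stood against 29.0% lower and a median of -0.09 over all tested probe sets, and the list was chosen with earlier results of these data known. Dio2, the other activating deiodinase, was at 59.3 and 67.4 in knockout and at 185 and 175 in wild type, and fell by 1.21 ± 0.15 (limma, adjusted p = 0.00466). Slc7a8 and Slc7a5 encode light chains of amino acid exchangers that also carry thyroid hormone. Slc7a8 fell by 1.53 ± 0.13 (73.2 ± 7.63 in knockout, 258 ± 1.69 in wild type). Slc7a5 fell by 1.35 ± 0.11 (539 ± 78.0 in knockout, 1409 ± 9.35 in wild type). Slc3a2, their common heavy chain, fell by 0.82 ± 0.08, to 1998 ± 79.8 in knockout against 3551 ± 322 in wild type.

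The 4 nuclear partners tested on MG-U74A fell, while Thrb, Rxrg and Ncoa2 were too dim to test there. The receptor gene Thra fell by 0.71 ± 0.12, its dimer partners Rxrb and Rxra by 0.76 ± 0.14 and 0.38 ± 0.11 (Rxra on 1 of 2 probe sets), and the coactivator gene Ncoa1 by 1.27 ± 0.14. Me1, malic enzyme, a classical thyroid hormone target in liver, fell by 0.92 ± 0.14. The gene that rose was Ttr, a carrier of thyroxine that alpha cells also express, by 0.64 ± 0.09, at 334 and 322 in knockout against 206 and 198 in wild type. The receptor genes Thrb and Rxrg and the hormone-binding protein gene Crym were listed below 0 on all MG-U74A arrays. On MG-U74B 1 of 5 tested genes fell, against 8.87% of all tested probe sets. It was Ncoa1, by 1.02 ± 0.15 (446 ± 3.47 in knockout, 931 ± 83.6 in wild type). Thra at -0.03 ± 0.26, Rxra at -0.50 ± 0.20, Me1 at -0.80 ± 0.44 and the coactivator gene Ncoa2 at -0.02 ± 0.15 did not pass there. The MG-U74B call of Ncoa1 ended without knockout replicate 1 (adjusted p = 0.0621) and with no variance trend (0.0568). Without 1 array the MG-U74A calls ended for Thra (wild type replicate 1, adjusted p = 0.0782, and replicate 2, 0.0538), Rxra (0.136 and 0.178 without the same arrays), Rxrb (0.0602 without wild type replicate 1, 0.0613 and 0.0585 without knockout replicates 1 and 2), Me1 (0.0548) and Ttr (0.0507), the last pair without wild type replicate 2. Rxra also did not pass with no filter (0.125), quantile normalization (0.0794) or no variance trend (0.0740), nor Rxrb with no filter (0.0605).

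Dio1 is a selenoprotein, made by reading a stop codon as selenocysteine. Of 25 listed genes of selenoproteins and selenocysteine insertion 18 were measured on MG-U74A and 15 tested, of which 7 fell, 2 rose and 6 did not pass (median -0.50), against 29.0% lower and 23.9% higher among all tested probe sets. Sephs2, the enzyme that makes the selenium donor for selenocysteine, was at 102 and 100.3 in knockout against 326 and 348 in wild type (-1.52 ± 0.11, limma, adjusted p = 0.00100). Selenok, an endoplasmic reticulum selenoprotein, on 1 of 2 probe sets fell by 1.03 ± 0.05, to 622 ± 23.1 in knockout against 1297 ± 6.30 in wild type. Gpx3, the secreted glutathione peroxidase, fell by 0.75 ± 0.05 and Selenot by 0.59 ± 0.03. The methionine sulfoxide reductase gene Msrb1 rose by 0.94 ± 0.07, at 677 and 694 in knockout against 359 and 335 in wild type, and Gpx4, which repairs lipid peroxides, rose by 0.51 ± 0.08. Gpx1, the most widespread peroxidase, was at 590 and 641 in knockout and at 641 and 639 in wild type and did not pass (-0.06 ± 0.06). Selenof did not pass on its brighter probe set (-0.09 ± 0.05) but rose on the other.

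On MG-U74B 2 of 7 tested genes of this list fell, against 8.87% of all tested probe sets. Selenot fell by 1.35 ± 0.29 there, and Scly, which recovers selenium from selenocysteine, was at 249 and 233 in knockout against 640 and 549 in wild type, a log2 difference of -1.22 ± 0.19. The insertion factor gene Secisbp2 was listed below 0 on all MG-U74B arrays, and Sepsecs, at -0.64 ± 0.15, did not pass (limma, adjusted p = 0.0530). Sepsecs passed with a filter of 50% of the array mean (0.0469) and with quantile normalization (0.0394). Selenoi did not pass on its brightest probe set, while 1 other rose and 1 other fell. Without wild type replicate 2 the call of Gpx4 ended (adjusted p = 0.0552), and that of Gpx2 (-0.32 ± 0.07) ended without any 1 of the 4 arrays (0.0562 to 0.145), with no filter (0.0697) and with no variance trend (0.0550). The MG-U74B calls ended without either knockout array, at 0.0956 and 0.0652 for Selenot and at 0.0646 and 0.0561 for Scly, and for Selenot with no filter (0.0761). Without either wild type array 1 probe set passed on all of MG-U74B, that of Mzb1, a plasma cell gene, so no MG-U74B call named for these genes held then.

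**Figure D3:**
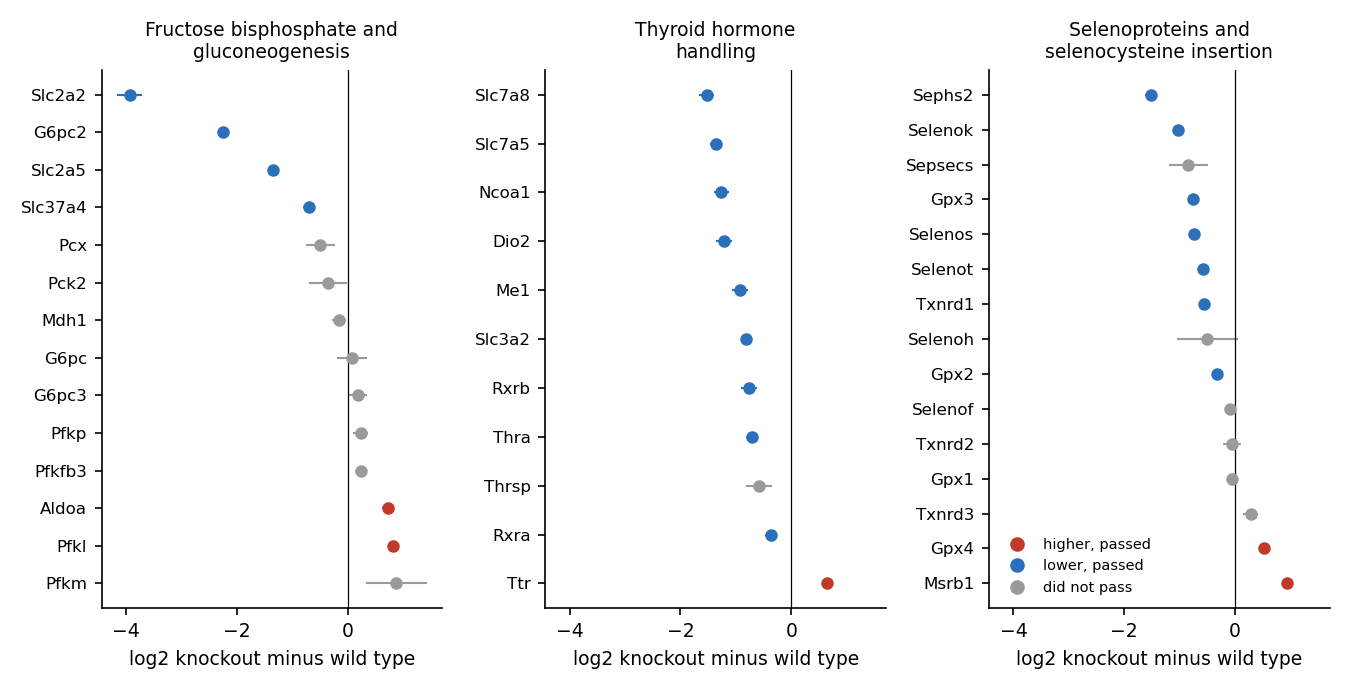
Log2 change, knockout minus wild type, with its standard error (horizontal axis) of the tested genes of 3 lists on MG-U74A. Red points rose, blue points fell and grey points did not pass limma with Benjamini-Hochberg adjustment. Thyroid hormone genes lie left of 0 except Ttr, while the fructose bisphosphate list spans -3.93 for Slc2a2 to 0.88 for Pfkm.

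START domain relatives of Stard10 were tested on both array types. Of 14 listed genes 3 were tested on MG-U74A, where 1 fell, and 7 on MG-U74B, where 1 rose and 1 fell. Among all tested probe sets 29.0% were lower on MG-U74A, and 8.59% were higher and 8.87% lower on MG-U74B. In either direction 52.9% passed on MG-U74A and 17.5% on MG-U74B. Stard7, a phosphatidylcholine carrier to mitochondria, was at 432 and 463 in knockout against 708 and 711 in wild type, a log2 difference of -0.64 ± 0.06 (limma, adjusted p = 0.00236). Stard3, a sterol carrier of late endosomes, was at 377 and 421 in knockout and 401 and 386 in wild type (0.02 ± 0.08). The steroidogenic gene Star was at 0.02 ± 0.18 on MG-U74A. On MG-U74B Star was at 57.1 and 48.0 in knockout against 179 and 259 in wild type (-1.64 ± 0.40). It did not pass there (limma, adjusted p = 0.0550), but passed with a floor in place of the constant (0.0466) and with no variance trend (0.0469). Pctp, the phosphatidylcholine transfer protein, was too dim to test on MG-U74A and at 0.74 ± 0.45 on MG-U74B. On MG-U74B the sterol carrier gene Stard5 rose by 1.09 ± 0.24 on 1 of 2 probe sets (limma, adjusted p = 0.0431), at 1879 and 1596 in knockout against 999 and 636 in wild type. The ceramide carrier gene Cert1 fell by 0.57 ± 0.13 (limma, adjusted p = 0.0449), on both tested probe sets of 4. Stard4, a sterol carrier, did not pass on its brighter probe set (0.57 ± 0.16) and rose on the other, Stard6 and Stard8 did not pass, and Dlc1, Acot11 and Acot12 were too dim to test. The Stard5 and Cert1 calls ended without any 1 of the 4 arrays (adjusted p of 0.0794 to 0.168 and of 0.0865 to 0.238), and with no filter (0.170 and 0.103) or no variance trend (0.105 and 0.144).

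Among genes that supply the lipids Stard10 carries, the share that fell was near that of all probe sets. Of 19 listed genes 11 were tested on MG-U74A, of which 3 fell and 1 rose, with a median of -0.11. This stood against 29.0% lower, 23.9% higher and a median of -0.09 over all tested probe sets. Pcyt1a and Pitpnb did not pass on their brightest probe sets, but each rose on 1 other. Pcyt2, the regulated step of phosphatidylethanolamine synthesis, fell on MG-U74A by 0.57 ± 0.06 (360 ± 14.1 in knockout, 547 ± 6.36 in wild type) but rose on the MG-U74B probe set by 0.81 ± 0.18 (1270 ± 133 and 715 ± 130), so its direction is not settled. Etnk1, an ethanolamine kinase, fell by 0.49 ± 0.10, and Chka, choline kinase, fell by 2.44 ± 0.68 with knockout arrays far apart at 2.60 and 77.6, against 277 and 253 in wild type. Pltp, the plasma phospholipid transfer protein, rose to 214 and 260 in knockout and was listed below 0 in wild type (limma, adjusted p = 8.21e-04). On MG-U74B 2 of 5 tested genes rose, against 8.59% of all tested probe sets. They were Pcyt2 and, on 1 of 2 probe sets, Cept1, which completes both lipids in the endoplasmic reticulum (0.73 ± 0.13, limma, adjusted p = 0.0268). Both MG-U74B calls ended without either knockout array (0.0833 to 0.142 for Pcyt2, 0.0640 and 0.0653 for Cept1) and with no variance trend (0.109 and 0.0874), and that of Pcyt2 with no filter (0.133). The Chka call (limma, adjusted p = 0.0426) ended without wild type replicate 1 (0.132) or 2 (0.120), with the constant of 4% (0.0676), with no filter (0.149) and with no variance trend (0.0642), and that of Etnk1 without wild type replicate 1 (0.0935) or 2 (0.0817) and with no filter (0.0695).

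None of the tested genes beside the 3 on their chromosomes had a log2 difference below -1.58. Of the 3 nearest measured protein-coding genes on each side of each gene, 18 genes with 20 probe sets, 13 probe sets were tested, of which 2 rose, 2 fell and 9 did not pass. On MG-U74A 2 of 6 passed, against 52.9% of all tested probe sets, and on MG-U74B 2 of 7, against 17.5%. Around Stard10, the adjoining gene Arap1, a GTPase-activating protein, was at 70.5 and 199 in knockout and at 464 and 366 in wild type (-1.58 ± 0.48) and did not pass (limma, adjusted p = 0.0883), while Pde2a, the next measured gene, rose by 1.47 ± 0.28 (limma, adjusted p = 0.0316). Fchsd2, at -0.70 ± 0.43, and Clpb, at -0.73 ± 0.22, did not pass, and Atg16l2 and P2ry2 were too dim to test. Clpb (limma, adjusted p = 0.0547) passed with the constant of 20% (0.0497). Around Dio1, Tmem59 fell by 0.51 ± 0.04 (1096 ± 5.90 in knockout, 1575 ± 7.13 in wild type), Yipf1 fell by 0.22 ± 0.06, and Ndc1, a nuclear pore gene, rose by 1.12 ± 0.23 (limma, adjusted p = 0.0371), while Lrrc42 and Dmrtb1 did not pass and Hspb11 was too dim to test. Around Fbp1, Aopep was at 0.17 ± 0.05 and Ptch1, the Hedgehog receptor, at 0.08 ± 0.13 on MG-U74A, and neither passed. Aopep (limma, adjusted p = 0.0529) did pass with no filter (0.0323), with a filter of 50% of the array mean (0.046) and with quantile normalization (0.0287). The Fbp1 neighbours Fbp2, Cts3, Ctsm and Fancc were too dim to test. The call of Yipf1 ended without either wild type array (adjusted p = 0.150 and 0.236), without knockout replicate 2 (0.0562), with quantile normalization (0.0722) and with no variance trend (0.0749). Those of Pde2a and Ndc1 ended without any 1 of the 4 arrays (0.0584 to 0.137 and 0.104 to 0.158) and with no filter (0.0734 and 0.0769), and that of Ndc1 with no variance trend (0.0616).

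**Figure D4:**
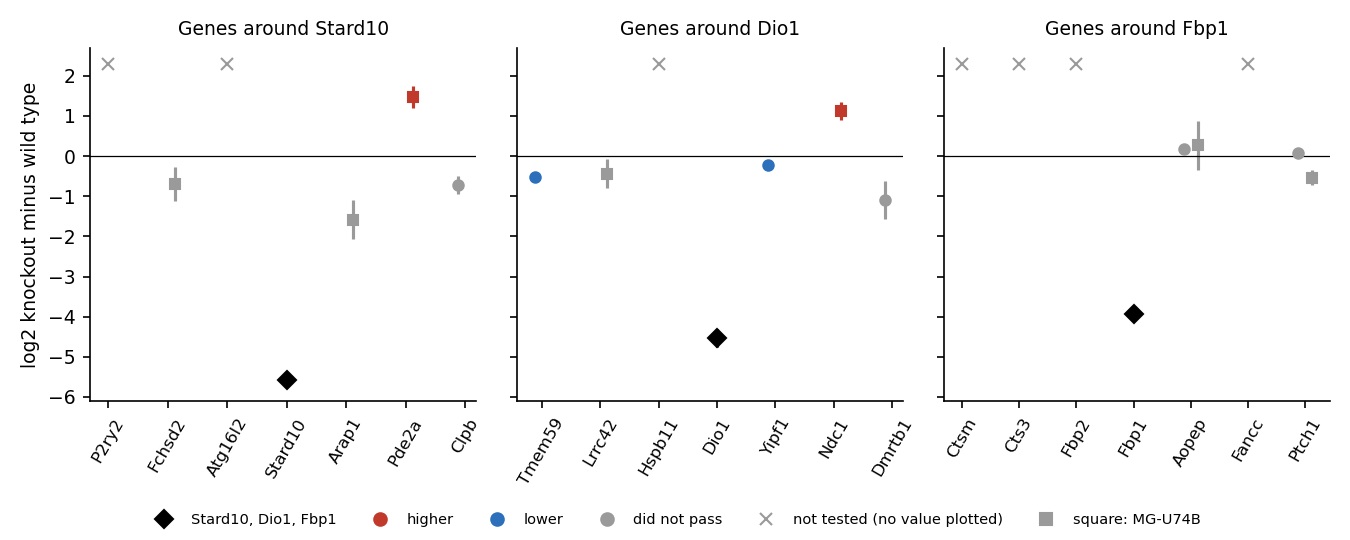
Log2 change, knockout minus wild type, with its standard error (vertical axis) of Stard10, Dio1 and Fbp1 (black diamonds) and of the 3 nearest measured protein-coding genes on each side, in chromosome order and not to distance. Circles are MG-U74A and squares MG-U74B, red rose, blue fell, grey did not pass, and crosses at the top mark genes too dim to test, with no value plotted. The 3 genes lie between -3.94 and -5.58 and the lowest neighbour, Arap1, at -1.58.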

How the data were processed

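Total RNA of pancreatic islets was measured on Affymetrix MG-U74A and MG-U74B arrays, per the labels. Deposited were intensities on a linear scale, which the authors had scaled so that the trimmed mean was 250.2 (MG-U74A) or 250.1 (MG-U74B), as the values show. The software they used is not given in these sources. Arrays were brought to that mean (without the highest and lowest 2%), negative values became 0, and 10% of the mean was added before log2. Probe sets averaging under 25% of it and 66 control probe sets per type were left out, leaving 7516 (MG-U74A) and 7861 (MG-U74B). Knockout minus wild type was fitted per type with limma 3.58.1 in R 4.3.3 (lmFit, eBayes with trend, two-sided, Benjamini-Hochberg over the type, threshold 0.05). The fit was also run on simulated data, with few changed probe sets and no floor at 0. The arrays differ from that setting, so the simulation does not vouch for the calls. A gene was represented by its tested probe set with the highest mean. With 2 arrays against 2, p-values rest on limma's pooling and reflect array-to-array spread, some of which may be technical.

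Names came from the array annotation, updated by gene number through GRCm38.p6 (10839 probe sets of MG-U74A, 10572 of MG-U74B), and promoters from RefSeq. The knocked-out gene is not reported here. Genes and lists were chosen with earlier results of these data known, and motifs and the centred likeness after values had been seen. Named genes were the 2 largest rises and falls of each list among calls without overlap, with paralogs, neighbours, the 5 most alike patterns and other list members as needed. Replicate numbers were not used to pair the arrays in the main fit. Same-numbered deviations correlated at 0.02 and 0.03. With 2 arrays per genotype this cannot show whether same-numbered arrays shared a preparation.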

Additional observations from a re-analysis of the deposited data

How the results depend on the processing

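The log2 differences of Stard10, Dio1 and Fbp1 moved with the constant: -6.88, -5.62 and -5.20 at 4% of the array mean, -4.61, -3.68 and -3.03 at 20%. Fbp1 was also at -3.84 with a floor in place of the constant and -3.91 with quantile normalization. Leaving out 1 array gave -5.64 to -5.52 for Stard10, -4.72 to -4.36 for Dio1 and -3.96 to -3.91 for Fbp1. With no filter the calls were 2 for the START domain family, 2 for lipid supply and 4 for the neighbours on MG-U74A, and neighbour calls were 1 with no variance trend and 1 with the replicate block. Calls on MG-U74B numbered 1372 (675 higher, 697 lower), 764 with no filter (332 and 432) and 638 with no variance trend (295 and 343). Leaving out 1 array gave 2439 to 4209 calls on MG-U74A, with 1298 to 1759 higher and 1141 to 2484 lower, and 1 to 934 on MG-U74B, with 1 to 288 higher and 0 to 646 lower (limma); without wild type replicate 1 or 2, 1922 and 1856 had an unadjusted p under 0.05 there. List calls on MG-U74A were then 6 to 9 for thyroid hormone, 7 to 10 for selenoproteins, 6 to 7 for fructose bisphosphate, 2 to 5 for lipid supply, 1 to 1 for START domain genes and 1 to 3 for neighbours. With the replicate block MG-U74A gave 3628 calls and MG-U74B 1207, and the calls of Yipf1 (adjusted p = 0.0931), Gpx2 (0.0522), Pfkfb2 (0.0506), Selenot on MG-U74B (0.0673), Pde2a (0.0508) and Ndc1 (0.0516) ended. Same-numbered arrays shared only a number. A genotype left with 1 array was assumed to vary like the other. For the 3 genes, knockout signals near background leave the size of the difference to the constant.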

Other observations

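When each probe set was first centred on its own mean, a choice made after seeing the data, 3 of the 5 genes most alike to Stard10, 4 of 5 for Dio1 and 4 of 5 for Fbp1 were shared with the uncentred ranking. Rnase4, a secreted ribonuclease gene, entered for Stard10 (distance 1.23) and became the closest for Dio1 (0.41), with a log2 change of -4.35. Amy1, amylase, entered for Fbp1 (0.23), with a log2 change of -3.79, and Gata1 stayed closest to Fbp1 (0.09).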
